A study of Mus musculus with 6 samples.

Results

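Metallothioneins and the genes driven by the oxidant sensor NRF2 form the cell's inducible defence against metals and reactive oxygen, and 10 such genes were followed in hearts of GRK2 heterozygous and wild-type mice. They were the metallothioneins Mt1 and Mt2, Nfe2l2, which encodes NRF2, and 7 NRF2 targets (Hmox1, Nqo1, Gclc, Gclm, Txnrd1, Srxn1 and Gsta3). All probe sets annotated to exactly 1 of these symbols were taken, which gave 20 of the 45037 probe sets tested and 10 of the 18193 named genes. GRK2, encoded by Adrbk1, phosphorylates activated receptors such as the beta-adrenergic receptors and so turns down their signalling. The GRK2+/- mice carried 1 targeted allele (B6.129-Adrbk1tm1Mca/J) in all cells after more than 20 generations of backcrossing onto C57BL/6J, and the wild-type (WT) mice were their littermates on C57BL/6J. Both groups were 9 months old, had no treatment named beyond anaesthesia and arrest of the heart at collection, and held 3 hearts with 1 Affymetrix array each. RNA came from the upper part of the heart, and the sex of the animals is not given in the sources used here.

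Metallothioneins are small cysteine-rich proteins that bind zinc and copper, and their genes are induced by zinc through the factor MTF-1, which binds metal response elements, and also by glucocorticoids and oxidants. NRF2 is held by KEAP1 and degraded in unstressed cells. Oxidants and electrophiles release it, and it then pairs with small MAF proteins at antioxidant response elements and switches on genes of glutathione, thioredoxin and haem metabolism. In heart muscle both systems are known for protection against oxidative injury.

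Values are log2 expression values as deposited, so a difference of 1 is a doubling, and differences are given as GRK2+/- minus WT with the standard error (SE) of limma's fit and n = 3 hearts per group. Array medians lay between 6.26 and 6.31, and precision is limited by having 3 arrays per genotype. No probe set annotated with exactly 1 symbol was named Grk2 or Adrbk1, and probe sets with several symbols were not searched. The targeted gene was thus not used as a check of genotype. The 8 cardiomyocyte markers examined lay between 12.5 and 15.11 in all hearts, and 1 of them, Ryr2, lay higher in GRK2+/- hearts without overlap (0.35 ± 0.077). Of 4 atrial markers Nppa, which stressed ventricles also express, lay at 9.56 to 11.62 and differed by -1.20 ± 0.27 without overlap. The others had means above those of WT hearts. Myl4, at 7.03 to 7.27, differed by 0.14 ± 0.072. Myl7 and Sln, both at 5.49 to 5.81, differed by 0.11 ± 0.066 (without overlap) and 0.054 ± 0.089. Of 6 endothelial markers 5 lay above 0, with Kdr (0.55 ± 0.12) and Tek (0.23 ± 0.091) higher and Pecam1 (-0.12 ± 0.074) lower without overlap, and their mean level was 9.31 to 9.44 in GRK2+/- and 9.08 to 9.31 in WT hearts. None of these markers passed with limma over all genes. Controls at the 3′ end of actin exceeded those at its 5′ end, a sign of how whole the RNA was, by 0.98 ± 0.080 in GRK2+/- and 0.78 ± 0.036 in WT hearts (SD, n = 3 each) without overlap. For pyruvate carboxylase the excess was 1.77 ± 0.068 and 1.75 ± 0.048, and for GAPDH 0.030 ± 0.016 and 0.0051 ± 0.039, both with overlap. Of the 6 neutrophil markers measured 0 passed with limma over all genes, and their mean level lay between 6.93 and 7.38 in GRK2+/- and between 6.33 and 6.61 in WT hearts, again without overlap. Of the 6, 3 lay above 0 and 3 below. In that list the alarmin genes S100a8 and S100a9 differed by 1.97 ± 0.29 and 2.25 ± 0.33 (limma adjusted p = 0.0800 and 0.0762). The granule genes Ngp, Camp and Ltf differed by -0.088 ± 0.100, -0.040 ± 0.10 and -0.038 ± 0.072, and Mmp8 by 0.15 ± 0.089, all with overlap. Of 6 fibroblast markers 4 lay above 0 and 2 below. Col1a1 (0.30 ± 0.11) was higher without overlap, and Lum differed by -0.18 ± 0.087. Of 3 erythroid markers measured 2 lay above 0 and 1 below, with Slc4a1 (0.18 ± 0.088) higher without overlap. Of 5 adipocyte markers measured 2 lay above 0 and 3 below, all with overlap. No marker of these lists passed with limma over all genes. The part of RNA integrity or of these cell types in the results below was not tested.

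The largest differences among the 10 genes were those of Gsta3, Mt2 and Mt1, whose means were 1.39 to 1.51 times lower in GRK2+/- hearts. Gclc, Gclm, Txnrd1 and Nqo1 had means at or above those of WT hearts, and the means of Hmox1, Srxn1 and Nfe2l2 lay slightly below. None of the 20 member probe sets passed an adjusted p of 0.05 with limma over all probe sets (0%, as over all 45037 probe sets), and the smallest adjusted p among them was 0.177. At an unadjusted p under 0.05 with limma there were 7 of the 20 member probe sets, against 12.8% of all probe sets. Of these, 6 had a lower mean (7.4% of all) and 1 a higher mean (5.44% of all). The groups did not overlap for 4 of the 20 (17.9% of all), all with GRK2+/- values below WT values (11.2% of all), and for 0 in the other direction (6.76% of all). With 1 probe set per gene, 3 of the 10 genes had an unadjusted p under 0.05 (14% of all genes) and 2 did not overlap (19.1% of all genes), all lower in GRK2+/- hearts (7.7% and 11.6% of all genes). Without WT heart 3 the 7 became 4. The 6 with a lower mean were 1 of Mt1, the 1 of Mt2, both of Gsta3, 1 of Nfe2l2 and 1 of Srxn1.

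**Figure D1:**
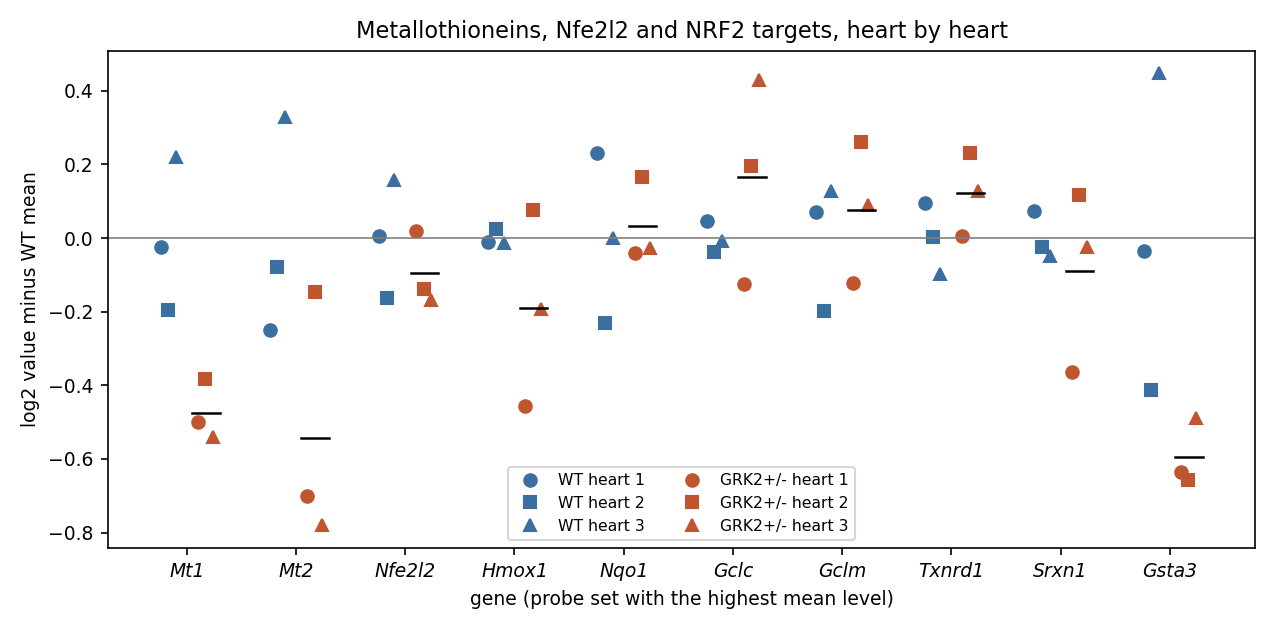
Log2 value of each gene in each heart minus the mean of the 3 WT hearts, for the probe set with the highest mean level; blue symbols are WT hearts, red symbols GRK2+/- hearts, the symbol shape gives the heart number, and the black bar is the GRK2+/- mean. All GRK2+/- values of Mt1 and Gsta3 lie below all WT values, those of Mt2 overlap through GRK2+/- heart 2, and those of the other 7 genes overlap.

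The stretches of DNA around the starts of Mt1, Mt2 and Gsta3 are shown because these 3 genes had the largest differences. Matches to the short cores of the metal or the antioxidant response element are marked in them. Sequences are from RefSeq, build GRCm38.p6, and run from 250 bases before to 50 bases after the start, 5′ to 3′ on the gene's strand. Capitals mark matches on either strand to the metal response element core, TGCACNC or TGCGCNC, or to the antioxidant response element core, TGACNNNGC. The windows are chr8:94178839-94179138 on the plus strand for Mt1, chr8:94172368-94172667 on the plus strand for Mt2 and chr1:21240335-21240634 on the plus strand for Gsta3.
Mt1: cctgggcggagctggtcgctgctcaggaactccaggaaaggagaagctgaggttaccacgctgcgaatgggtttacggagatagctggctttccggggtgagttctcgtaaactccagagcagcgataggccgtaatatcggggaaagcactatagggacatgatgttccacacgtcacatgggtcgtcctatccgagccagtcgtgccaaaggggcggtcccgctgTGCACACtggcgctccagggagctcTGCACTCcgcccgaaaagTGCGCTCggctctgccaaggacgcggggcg
Mt2: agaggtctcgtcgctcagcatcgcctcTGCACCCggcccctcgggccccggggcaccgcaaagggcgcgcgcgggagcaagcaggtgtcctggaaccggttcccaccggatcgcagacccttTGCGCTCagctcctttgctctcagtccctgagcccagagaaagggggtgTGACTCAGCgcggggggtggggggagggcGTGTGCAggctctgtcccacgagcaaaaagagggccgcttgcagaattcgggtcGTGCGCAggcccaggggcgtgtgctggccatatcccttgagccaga
Gsta3: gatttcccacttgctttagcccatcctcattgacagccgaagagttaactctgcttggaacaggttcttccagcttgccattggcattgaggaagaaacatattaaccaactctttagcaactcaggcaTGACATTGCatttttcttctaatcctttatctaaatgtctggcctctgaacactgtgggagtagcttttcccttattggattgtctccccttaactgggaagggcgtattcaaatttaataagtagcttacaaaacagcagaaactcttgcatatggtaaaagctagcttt

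The Mt1 window held 3 matches to the metal response element core and none to the antioxidant response element core, the Mt2 window held 4 and 1, and the Gsta3 window held 0 and 1. Of 32851 windows of the same length in the table, 1.97% held 3 or more metal response matches, 0.517% held 4 or more, and 12.4% held at least 1 antioxidant response match. Of the 10 genes 8 had a window (not Hmox1 and Gclc). Of these 8, 6 held an antioxidant response match (Mt2, Nfe2l2, Gclm, Txnrd1, Srxn1 and Gsta3) and 4 a metal response match (Mt1, Mt2, Gclm and Srxn1), which 25.7% of all windows held. Txnrd1 had 3 windows, of which 1 held a match, and each of the other genes had 1. No match of 1 core overlapped one of the other in the 3 windows shown, whereas 1 pair overlapped in Gclm. Such matches describe letters in these windows and do not show that a factor binds there. Bases outside the windows were not searched, so a window without a match does not show that its gene lacks the element.

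Mt1 was measured by 2 probe sets, which gave differences of unlike size. With the first (1422557_s_at) its values were 12.79, 12.90 and 12.74 in GRK2+/- hearts 1, 2 and 3 and 13.26, 13.09 and 13.50 in WT hearts 1, 2 and 3. All GRK2+/- values lay below all WT values, and the difference was -0.47 ± 0.10, a 1.39 times lower mean (95% interval -0.71 to -0.24; limma adjusted p = 0.177 over all probe sets). The second (1451612_at) read 7.34, 6.95 and 7.43 in GRK2+/- and 7.21, 7.22 and 7.56 in WT hearts. Here the groups overlapped and the difference was -0.088 ± 0.13 (95% interval -0.39 to 0.21; adjusted p = 0.815). The suffix _s_at marks a probe set whose probes match several transcripts, so the first probe set may hold signal of a related transcript, which was not tested. The value for Mt1 was thus -0.088 with the probe set that lacks this suffix and -0.28 with the mean of both.

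Mt2 had 1 probe set (1428942_at), with values of 10.09, 10.64 and 10.01 in GRK2+/- hearts and 10.53, 10.71 and 11.11 in WT hearts. GRK2+/- hearts 1 and 3 lay below all WT hearts, and GRK2+/- heart 2 lay between WT hearts 1 and 2. The difference was -0.54 ± 0.18, a 1.46 times lower mean (95% interval -0.94 to -0.14; limma adjusted p = 0.276 over all probe sets). WT heart 3 had the highest value of both metallothioneins. Without it the differences over genes were -0.37 for Mt1 and -0.38 for Mt2, and without GRK2+/- heart 2 they were -0.52 and -0.74.

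The other metallothioneins of the same gene cluster had means slightly above those of WT hearts. In the gene order of the RefSeq table Mt4, Mt3, Mt2 and Mt1 follow each other on chromosome 8, with 1 gene for a long non-coding RNA between Mt3 and Mt2. Mt3, known mainly from brain, read 7.40, 7.80 and 7.55 in GRK2+/- and 7.27, 7.54 and 7.47 in WT hearts, a difference of 0.15 ± 0.11 (adjusted p = 0.547 over all genes). Mt4, known from stratified epithelia, differed by 0.083 ± 0.096 (adjusted p = 0.723) with values between 4.40 and 4.79, close to the bottom of the scale. MTF-1 itself (Mtf1), the zinc-sensing factor, differed by -0.035 ± 0.071. Slc30a1, the zinc exporter that MTF-1 also induces, differed by 0.20 ± 0.098. Its groups did not overlap, with values from 9.818 upward in GRK2+/- and up to 9.815 in WT hearts.

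Gsta3, an alpha-class glutathione S-transferase that joins glutathione to electrophiles, differed most among the NRF2 targets. Its probe set 1423436_at read 6.98, 6.96 and 7.13 in GRK2+/- hearts and 7.58, 7.20 and 8.06 in WT hearts. The groups did not overlap, although the nearest values, those of WT heart 2 and GRK2+/- heart 3, were close, and the SD was 0.43 in WT and 0.092 in GRK2+/- hearts. The difference was -0.59 ± 0.17, a 1.51 times lower mean (95% interval -0.98 to -0.21; limma adjusted p = 0.238 over all probe sets). A dimmer probe set, 1423437_at, gave -0.33 ± 0.13 (adjusted p = 0.339), with GRK2+/- values of 5.89 to 6.05 and WT values of 6.03 to 6.62. Without WT heart 3, which was highest with both, the differences were -0.37 and -0.17. Alpha-class transferases are close paralogs, and Gsta2 and Gsta4 differed by 0.12 ± 0.11 and -0.14 ± 0.073; a signal shared between them was not tested.

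Glutathione is made by glutamate-cysteine ligase, whose catalytic subunit is Gclc and whose modifier subunit is Gclm. Gclc read 8.10, 8.43 and 8.66 in GRK2+/- hearts and 8.27, 8.19 and 8.22 in WT hearts with its brighter probe set (1455959_s_at), a difference of 0.17 ± 0.12 (limma adjusted p = 0.593). GRK2+/- heart 1 lay below all WT hearts and hearts 2 and 3 above them. The difference was 0.31 without GRK2+/- heart 1 and 0.035 without GRK2+/- heart 3. The other Gclc probe set (1424296_at) read 7.86, 8.14 and 8.12 against 7.91, 7.63 and 7.60, and its difference of 0.33 ± 0.11, a 1.25 times higher mean, was the 1 higher member probe set at an unadjusted p under 0.05 (limma adjusted p = 0.276). In that probe set GRK2+/- heart 1 lay below WT heart 1. Gclm differed by 0.077 ± 0.11 (1418627_at) and 0.23 ± 0.22 (1439050_at) with its 2 probe sets. The 95% interval of the brighter one ran from -0.18 to 0.33, with values of 9.75, 10.13 and 9.96 in GRK2+/- and 9.94, 9.67 and 9.996 in WT hearts. The difference of both Gclm probe sets turned negative without GRK2+/- heart 2.

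Txnrd1, the cytosolic thioredoxin reductase, read 9.56, 9.79 and 9.68 in GRK2+/- and 9.65, 9.56 and 9.46 in WT hearts with its brightest probe set (1421529_a_at). The ranges overlapped, and the difference was 0.12 ± 0.084 (95% interval -0.066 to 0.31; limma adjusted p = 0.573). Its other probe sets gave -0.094 ± 0.094 (1424486_a_at) and 0.046 ± 0.077 (1424487_x_at), so the direction depended on the probe set. The difference of the brightest was 0.066 without GRK2+/- heart 2 and 0.073 without WT heart 3. Srxn1, sulfiredoxin, which repairs over-oxidised peroxiredoxins, had 4 probe sets with differences from -0.23 (1419942_at) to 0.078 (1425351_at), the others being 0.017 (1426875_s_at) and -0.090. The brightest (1451680_at) read 7.82, 8.30 and 8.16 in GRK2+/- and 8.25, 8.16 and 8.13 in WT hearts, a difference of -0.090 ± 0.11 (adjusted p = 0.77), with GRK2+/- heart 1 the lowest of all hearts. The groups were apart in 1419942_at alone, at 6.27, 6.12 and 6.06 against 6.32, 6.45 and 6.37, a difference of -0.23 ± 0.079 (adjusted p = 0.285).

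Hmox1, haem oxygenase 1, which degrades haem and is a target of both NRF2 and its competitor BACH1, (1448239_at) read 7.81, 8.35 and 8.08 in GRK2+/- hearts and 8.26, 8.29 and 8.26 in WT hearts. WT hearts lay within a narrow range (SD 0.022), while GRK2+/- hearts spread to both sides of it (SD 0.27). The difference was -0.19 ± 0.12 (95% interval -0.45 to 0.070; limma adjusted p = 0.522) and was -0.058 without GRK2+/- heart 1 and -0.32 without GRK2+/- heart 2. Macrophages are a known site of Hmox1 expression. Of 10 macrophage markers, 0 passed over all genes, their mean level lay between 8.64 and 8.70 in GRK2+/- and between 8.66 and 8.76 in WT hearts, and none was at 0. Among them Cd163, the scavenger receptor for haemoglobin, differed by -0.29 ± 0.077 (adjusted p = 0.191) with 3 GRK2+/- values of 7.76 to 7.97 below WT values of 8.08 to 8.20. Of the 10, 6 lay below 0 and 4 above: C1qa and C1qb were also lower without overlap (-0.11 ± 0.073 and -0.14 ± 0.077), whereas Csf1r was higher without overlap (0.13 ± 0.071) and Mrc1 differed by 0.14 ± 0.087. In tissue RNA fewer cells of a type and less RNA per cell cannot be told apart, and the part of macrophages in the Hmox1 values was not tested.

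Nqo1, a quinone reductase often used as a readout of NRF2 activity (1423627_at), read 9.81, 10.01 and 9.82 in GRK2+/- and 10.08, 9.62 and 9.85 in WT hearts. The GRK2+/- values lay within the WT range, and the difference was 0.033 ± 0.11 (95% interval -0.22 to 0.29; limma adjusted p = 0.929). Nfe2l2 itself (1416543_at) read 10.93, 10.78 and 10.75 in GRK2+/- and 10.92, 10.75 and 11.07 in WT hearts, overlapping, with a difference of -0.096 ± 0.094 (95% interval -0.31 to 0.11; adjusted p = 0.703). That difference was -0.016 without WT heart 3 and -0.18 without WT heart 2. Its other probe set, 1457117_at, lay below the array median, at 5.41 to 5.51 against 5.61 to 5.70 without overlap, and differed by -0.17 ± 0.069 (adjusted p = 0.337). NRF2 is controlled mainly through the stability of its protein, which arrays do not measure.

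**Figure D2:**
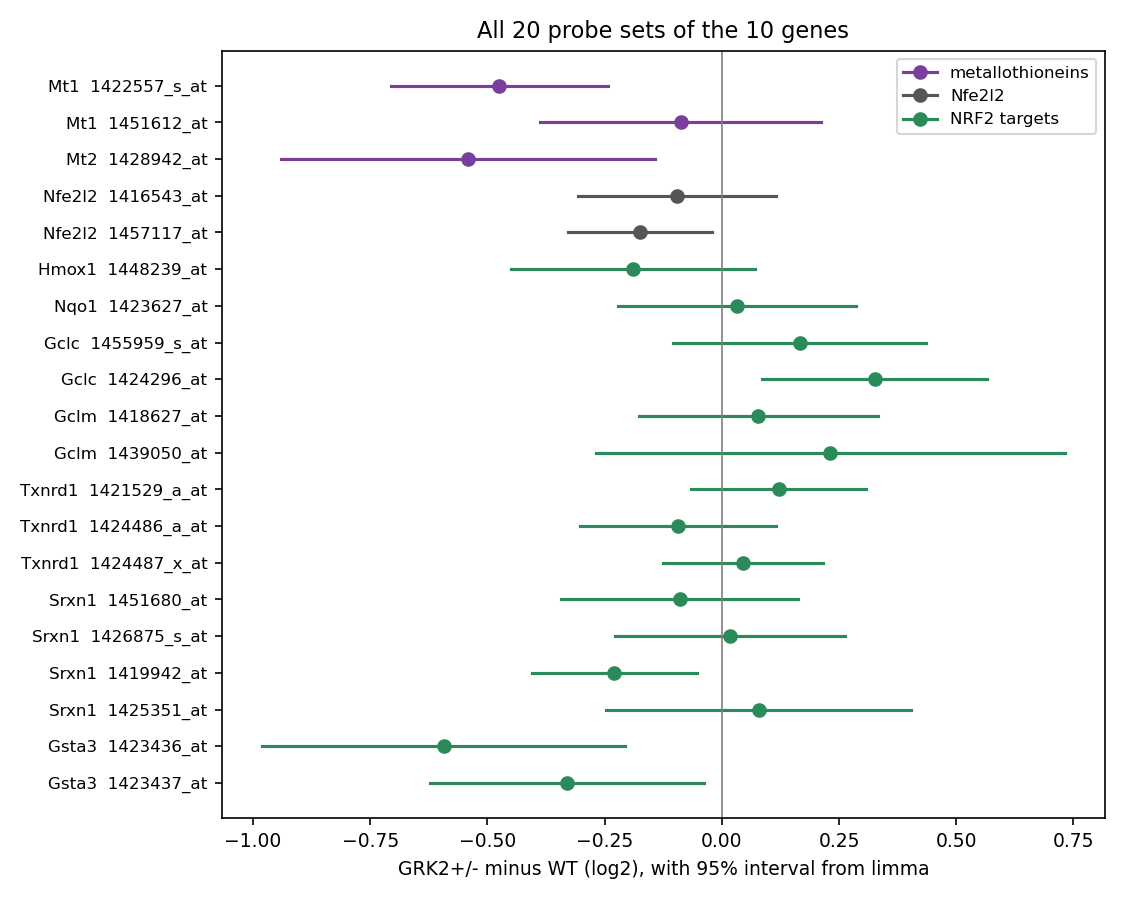
Difference GRK2+/- minus WT on the log2 scale for each of the 20 probe sets, with limma's 95% interval (n = 3 hearts per group); purple marks metallothioneins, grey Nfe2l2 and green NRF2 targets. Intervals of 7 probe sets exclude 0 before any adjustment, 6 of them below 0, and the intervals of Nqo1, Gclm, Txnrd1, Hmox1 and the brightest Srxn1 probe set include 0.

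Set side by side, the 2 groups of genes had different averages. The mean over Mt1 and Mt2, relative to the WT mean, was -0.60, -0.26 and -0.66 in GRK2+/- hearts 1, 2 and 3 and -0.14, -0.14 and 0.27 in WT hearts, a difference of -0.51 between group means (SD 0.21 and 0.24). The mean over the 7 NRF2 targets was -0.25, 0.056 and -0.012 in GRK2+/- hearts and 0.067, -0.13 and 0.058 in WT hearts, a difference of -0.068 (SD 0.16 and 0.11). The hearts of the 2 genotypes were apart for the metallothioneins and overlapped for the NRF2 targets. Without Gsta3 the mean over the other 6 targets differed by 0.019. Within each heart, metallothioneins minus NRF2 targets came to -0.35, -0.32 and -0.65 in GRK2+/- and -0.21, -0.011 and 0.22 in WT hearts, and these averages carry no test because the genes were chosen with earlier results known. The metallothionein difference was -0.315 with the Mt1 probe set that lacks the _s_at suffix, and the NRF2 target difference was 0.022 without GRK2+/- heart 1. Among GRK2+/- hearts, heart 1 had the lowest value of every NRF2 target except Gsta3.

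**Figure D3:**
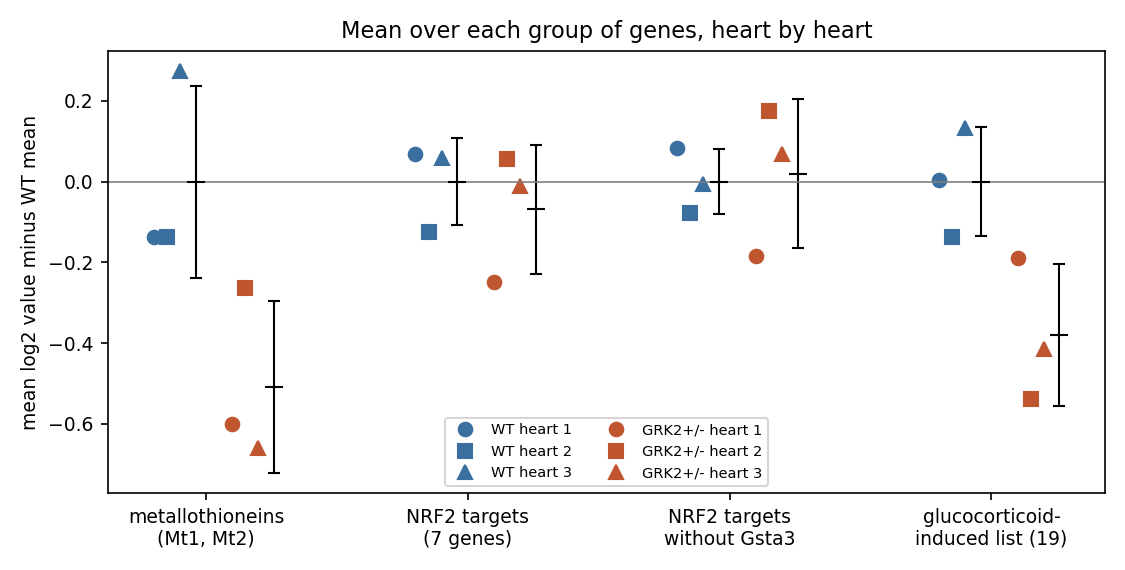
Mean log2 value over each group of genes in each heart, minus the WT mean, with bars for the mean and SD of 3 hearts; blue symbols are WT and red symbols GRK2+/- hearts. The metallothionein means of GRK2+/- hearts (-0.66 to -0.26) lie below those of WT hearts (-0.14 to 0.27), and the NRF2 target means overlap with or without Gsta3.

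The wider pathway was described with 8 lists of further genes, of which 84 of 90 were measured. With limma 0 of these 84 passed over all genes (0% of all 18193 genes did). At an unadjusted p under 0.05, 1 had a higher mean (6.3% of all genes) and 3 a lower mean (7.7%). Their median difference was -0.020 and that of all genes -0.019. The 3 were Chac1, which degrades glutathione and is induced by the unfolded protein response (-0.57 ± 0.24, limma adjusted p = 0.331), Osgin1, an oxidant-induced growth inhibitor (-0.25 ± 0.082, adjusted p = 0.248), and Sod3, the extracellular superoxide dismutase (-0.21 ± 0.086, adjusted p = 0.327). The 1 higher was the intestinal zinc importer Slc39a4 (0.24 ± 0.084, adjusted p = 0.274), with values of 5.32 to 5.76. The groups did not overlap for 12 of the 84 (19.1% of all genes), 6 higher (7.44%) and 6 lower (11.6%). Among the higher were Slc39a4, Slc30a1, Cul3, Me1 and Cat, and among the lower Osgin1, Mafk, Gsta4 and Sod2.

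Of the 10 genes that control NRF2, 0 passed and the median difference was -0.014. KEAP1 (Keap1), the adaptor that marks NRF2 for degradation, differed by -0.036 ± 0.081, and its cullin partner Cul3 by 0.11 ± 0.066. Bach1, the repressor that competes with NRF2 at Hmox1, differed by 0.10 ± 0.082. Sqstm1, an autophagy receptor that sequesters KEAP1 and is itself an NRF2 target, differed by -0.13 ± 0.082, and the small MAF protein gene Mafk by -0.093 ± 0.064. None of the 5 had an unadjusted p under 0.05, and no gene of the list had.

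The enzymes that use glutathione and thioredoxin gave small differences. Of 17 measured glutathione genes 0 passed, 12 lay below 0 and 5 above, and the median was -0.072 (-0.010 without GRK2+/- heart 1). Beside Chac1 the smallest p values in that list were those of Ggct, a cyclotransferase of gamma-glutamyl amino acids (0.18 ± 0.089), and the peroxidase Gpx2 (-0.25 ± 0.12). Of 5 thioredoxin genes 0 passed and the median was -0.082, with thioredoxin itself, Txn1, at 0.11 ± 0.085, the mitochondrial peroxiredoxin Prdx3 at -0.090 ± 0.071 and Prdx2 at -0.082 ± 0.068. Of 5 genes of superoxide and peroxide removal 0 passed, and the median was -0.028. Catalase (Cat) differed by 0.18 ± 0.081 and mitochondrial superoxide dismutase (Sod2) by -0.059 ± 0.066.

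Genes that supply NADPH to both systems had a median of 0.084 over 5, none of which passed, with malic enzyme (Me1) at 0.19 ± 0.084, transketolase (Tkt) at 0.19 ± 0.11 and Idh1 at 0.084 ± 0.085. Of 6 haem and iron genes 0 passed and the median was -0.062. In that list the iron exporter ferroportin (Slc40a1) differed by 0.22 ± 0.10, the biliverdin reductase Blvrb by -0.11 ± 0.076 and the constitutive haem oxygenase Hmox2 by -0.074 ± 0.067. Of 12 other detoxification genes 0 passed, 6 lay above 0 and 6 below, and Aox1 and Ugdh differed by 0.16 ± 0.095 and 0.15 ± 0.11. The 24 genes of the metal response and zinc transport had a median of 0.026, with 14 above 0 and 10 below. Beside Slc39a4, the exporter Slc30a10 differed by 0.18 ± 0.083 and the importer Slc39a2 by -0.23 ± 0.11, both with means of 4.84 to 5.48, close to the bottom of the scale.

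Metallothionein genes are also induced by glucocorticoids, and 19 glucocorticoid-induced genes were set beside them. This list was written after earlier results had shown some of its genes to be lower in GRK2+/- hearts, so it is no independent evidence of a direction. With limma 0 of the 19 passed, 9 had a lower and 3 a higher mean at an unadjusted p under 0.05 (7.7% and 6.3% of all genes), and the median was -0.34. The genes with the smallest p were Fam107a (-1.65 ± 0.19), Fkbp5 (-1.39 ± 0.20) and Cdkn1a (-0.52 ± 0.087), with adjusted p of 0.0632, 0.0762 and 0.0943. The mean over the list was -0.19, -0.54 and -0.41 in GRK2+/- hearts 1, 2 and 3 and 0.0047, -0.14 and 0.13 in WT hearts. GRK2+/- heart 2 thus had the lowest list mean. It was the highest of its group for Mt2 and for Mt1 with probe set 1422557_s_at, but the lowest of all hearts for Mt1 with 1451612_at. Of the genes named here, Fam107a and Fkbp5 were lowest in GRK2+/- heart 3 and Cdkn1a in GRK2+/- heart 2. Whether this list and the metallothioneins share a cause was not tested. The median of the list was -0.54 without WT heart 2, -0.19 without WT heart 3 and -0.101 without genes under the median level.

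**Figure D4:**
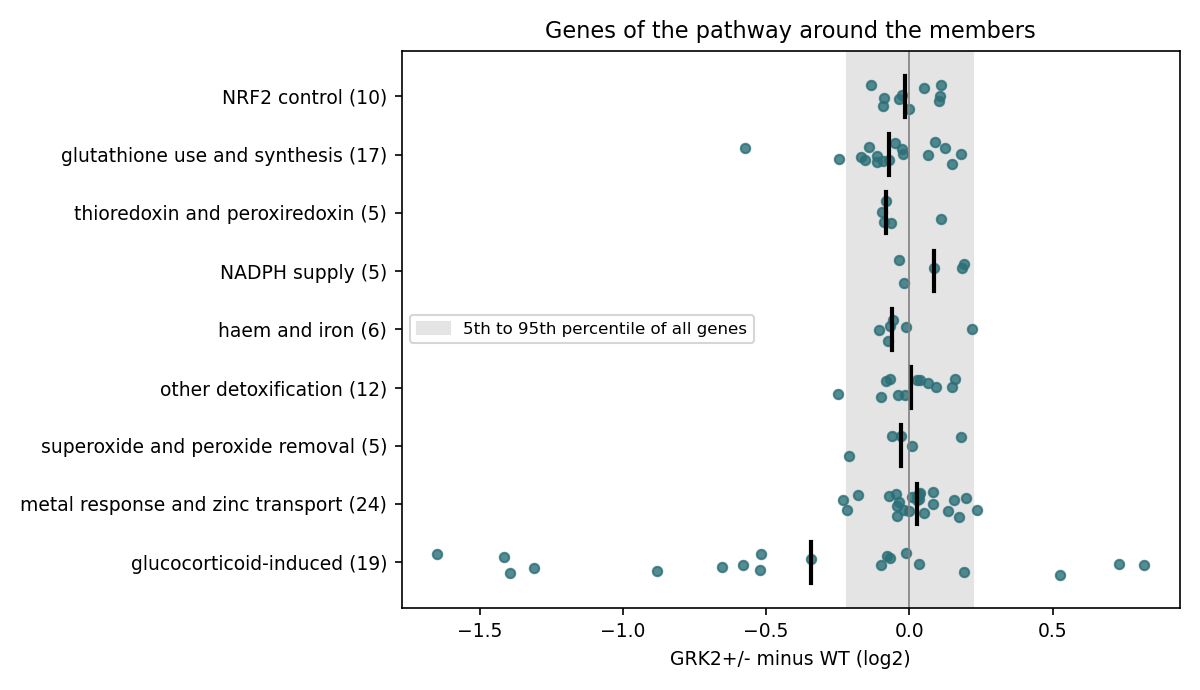
Difference GRK2+/- minus WT (log2) for each measured gene of the lists around the members, with the number of genes in brackets, black bars for list medians and a grey band for the 5th to 95th percentile of all genes (-0.22 to 0.22). Medians of the 8 metal and oxidant lists lie between -0.082 and 0.084, and the glucocorticoid-induced list, at a median of -0.34, has genes on both sides of the band.

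The genes whose pattern over the 6 arrays was most like that of Mt1 and Mt2 were sought among 9087 other genes at or above the median level. Likeness was the root mean square difference between the deviations of a gene and the average deviations of Mt1 and Mt2, which themselves had a root mean square of 0.31. The nearest were Mfap5, a protein of elastic microfibrils (0.043), Midn (0.090), Endou (0.12), the lipid carrier Apod (0.12) and the cytochrome P450 Cyp1b1 (0.13). Mfap5 read 8.68, 9.00 and 8.62 in GRK2+/- hearts and 9.21, 9.19 and 9.49 in WT hearts, a difference of -0.53 ± 0.12 (limma adjusted p = 0.14 over all genes). Cyp1b1 differed by -0.51 ± 0.097 (adjusted p = 0.107). By the same measure Mt1 and Mt2 differed from each other by 0.19. These genes were picked as the nearest of many, so their likeness is a description. Nearest to Hmox1 (own root mean square 0.18) were Fxyd6 (0.024), a regulator of the sodium pump, Tmem184c (0.029) and BC028528 (0.041).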

How the data were processed

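Gene expression was measured in 3 GRK2+/- and 3 WT hearts with 1 Affymetrix array each. The authors deposited log2 expression values per probe set, made with RMA per the submitters' processing notes, which also name limma; no version is stated there, nor whether 1 normalisation covered all arrays. RMA shares its normalisation across arrays, so each value depends on the others. From these values 64 control probe sets were left out and 45037 tested. The platform annotation named 34945 probe sets with 1 symbol, gave several symbols for 932 (not named here) and did not list 9160, which remained unnamed. Symbols were updated through the Entrez identifier to the RefSeq table of GRCm38.p6. A gene with several probe sets was represented by the brightest of them over the 6 arrays (18193 genes).

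Groups were compared with limma (version 3.58.1, R 4.3.3; lmFit and eBayes, two-sided, constant prior), with Benjamini-Hochberg adjustment over all probe sets or all genes and a threshold of 0.05. Calculations were tested on simulated data. An exact permutation test of 3 against 3 hearts cannot go below 0.1 and was not used. The members and gene lists were chosen with earlier results of these data known. Named were all probe sets of the members, up to 3 genes per list with the smallest p, the 5 and 3 genes with the nearest pattern to the metallothioneins and Hmox1, and Mt3, Mt4, Mtf1, Slc30a1, Keap1, Bach1, Gsta2, Gsta4 and single cell type markers, which were chosen after their values were seen. Alternatives were other scalings, filters, priors, weights and probe set choices, a replicate block, and leaving out each heart.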

Additional observations from a re-analysis of the deposited data

How the results depend on the processing

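No member gene or member probe set passed an adjusted p of 0.05 under any alternative run (17 for genes, 14 for probe sets). The smallest limma adjusted p was 0.0525, for Mt1 with limma's prior fitted along the mean level, in a range of 0.0525 to 0.80. Of the values of member genes under alternatives, 163 kept their direction and side of the threshold and 7 reversed. Mt1, Mt2, Gsta3, Hmox1 and Nfe2l2 stayed below 0 and Gclc above 0 in these alternatives, with Mt1 between -0.57 and -0.088, Mt2 between -0.74 and -0.38 and Gsta3 between -0.80 and -0.37.

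Leaving out 1 heart reversed small differences. Nqo1 ranged from -0.082 (without WT heart 2) to 0.15 and was -0.033 without GRK2+/- heart 2. Gclm ranged from -0.021 (without WT heart 2) to 0.18 and was -0.015 without GRK2+/- heart 2, and its dimmer probe set ranged from -0.011 (without GRK2+/- heart 2) to 0.46. Srxn1 ranged from -0.19 to 0.047 (without GRK2+/- heart 1), its probe set 1425351_at from -0.032 (without GRK2+/- heart 2) to 0.24, and 1426875_s_at from -0.11 (without GRK2+/- heart 2) to 0.098. The second Mt1 probe set ranged from -0.18 to 0.056 (without GRK2+/- heart 2) and was 0.028 without WT heart 3. With the most variable probe set Txnrd1 was -0.094 and Srxn1 0.078.

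The 7 member probe sets at an unadjusted p under 0.05 became 4 without probe sets under the median level, where fewer were tested, and 4 to 7 when 1 heart was left out (4 without WT heart 3). The 3 member genes became 5 when the probe sets of a gene were averaged, and 2 to 4 without 1 heart (2 without GRK2+/- heart 3 or WT heart 3). Over all probe sets the 0 past the threshold became 22 with limma's prior fitted along the mean level and 0 to 41 without 1 heart (41, 9 and 6 without GRK2+/- hearts 1, 2 and 3). Over all genes 0 became 42 with that prior, 6 without genes under the median level, 12 with array weights, 12 with the most variable probe set, 7 with probe sets lacking the _s_at or _x_at suffix and 0 to 56 without 1 heart (56, 3 and 4 without GRK2+/- hearts 1, 2 and 3). Of the pathway lists, 0 became 4, 1, 2, 2 and 1 in the same order and 0 to 7 without 1 heart, all of them glucocorticoid-induced genes. The causes were not tested. Subtracting each array's median put the middle of all genes at 0.010 in place of -0.019.

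Small list medians moved by over 1.5 times or changed sign when 1 heart was left out. They ranged from -0.0351 to 0.0118 for NRF2 control, -0.104 to -0.00997 for glutathione, -0.104 to -0.0473 for thioredoxin, 0.0281 to 0.171 for NADPH supply, -0.0826 to -0.0341 for haem and iron, -0.00422 to 0.0387 for other detoxification, -0.045 to 0.0278 for superoxide and -0.00524 to 0.0302 for metal response genes.

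Same-numbered hearts did not deviate together (correlations -0.145, -0.0197 and 0.00949), and no GRK2+/- heart correlated best with its own number. These values gave no sign of pairing by number, but 3 hearts per group cannot show that there was none. With the number as a replicate block 1 gene in place of 0 passed over all genes, and no member did.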
